A study of Homo sapiens with 12 samples.

Results

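Isolated binding sites of FOXA1 are described here: 282 regions of the genome of LNCaP cells at which FOXA1 was found in both control libraries and whose nearest other such region lay more than 200 kb away. Overlapping peaks (at least 1 common base) in the lists of the 2 DMSO libraries were joined into regions, those on chromosomes 1 to 22 that held a peak of each list were kept, and the distance between region centres was measured along the chromosome. The rule kept 282 of 55297 regions, or 0.510%, and left 55015 other regions. The regions were thus chosen by the positions of DMSO peaks, so their distances, and the fact that DMSO called them, are a description and not a finding. Regions are given in the coordinates of the hg19 build used by the deposited files. Genes, exons or introns at these positions were not analysed here, and no sequence of that build was used.

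FOXA1 is a forkhead pioneer factor of luminal prostate cells: it can bind its motif in compacted chromatin and helps the androgen receptor reach enhancers. Its sites are known to occur in clusters, and a solitary site lies away from such groups. EZH2 is the methyltransferase of Polycomb repressive complex PRC2, which marks silent chromatin with methylated histone H3, and USP7 is a deubiquitinase that can protect proteins from degradation.

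The study mapped FOXA1 by chromatin immunoprecipitation and sequencing (ChIP-seq) in LNCaP, an established androgen-responsive prostate cancer cell line. In 8 libraries endogenous FOXA1 was precipitated after 7 days with 1 µM EPZ-6438 (tazemetostat, an EZH2 inhibitor), 3 µM P5091 (a USP7 inhibitor), both compounds at these doses (the combination) or DMSO, the solvent, with 2 libraries per group. The 4 further libraries, 1 per condition, were made with an anti-HA antibody on cells taken 5 days after infection: cells with a hairpin against FOXA1 (shFoxA1) carried HA-tagged FOXA1 with the K295A substitution, in which a lysine is replaced by alanine, or HA-tagged wild-type FOXA1 (WT), and shFoxA1 alone and the pGIPZ vector control carried no tag. Whether replicates were separate cultures is not stated in the labels, and p-values therefore cover no more than the spread among the libraries, which may be technical. The knockdown itself was not analysed here, and the tagged proteins were expressed from introduced constructs.

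Total tags, the aligned reads counted per library, lay between 11640056 and 13694090 in the HA libraries and between 12299238 and 22589685 in the FOXA1 libraries. The value of a region in a library is the normalized tag count of its highest peak there, that is, its tags per 10000000 tags of the library, and a region without a peak has no value. Combination replicate 1 stood apart: it held 30811 peaks with 5.26% of its tags, while the other 7 FOXA1 libraries held 68504 to 84423 peaks with 18.9% to 21.2% of their tags. Replicate numbers also went with fragment length as written in the file headers, 274 to 278 bases in replicate 1 and 216 to 230 bases in replicate 2.

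Among the isolated regions the nearest other region lay at a median of 252 kb (quartiles 219.8 and 310.2), and at most 1254 kb. The farther of the 2 neighbours lay at a median of 383 kb. Over the other regions the nearest neighbour was at a median of 13.2 kb. Of the 282, 13 had no other region within 500 kb, and 99 had another isolated region as a direct neighbour. Whether reads could be aligned throughout the gaps between regions was not examined. A gap, here and below, is thus a stretch without a called region and was not shown to be free of FOXA1. Their width was 365 to 581 bases.

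Isolated regions were spread over 21 of the 22 chromosomes and were frequent on a few of them. Chromosome 13 held 23 of them, or 1.51% of its regions, the highest share of any chromosome. Chromosome 18 followed with 13 (0.918%), chromosome 4 with 29 (0.845%) and chromosome 11 with 22 (0.825%). The largest number, 31, lay on chromosome 2 (0.698%), and chromosome 22 held 0 of its 681 regions.

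**Figure D1:**
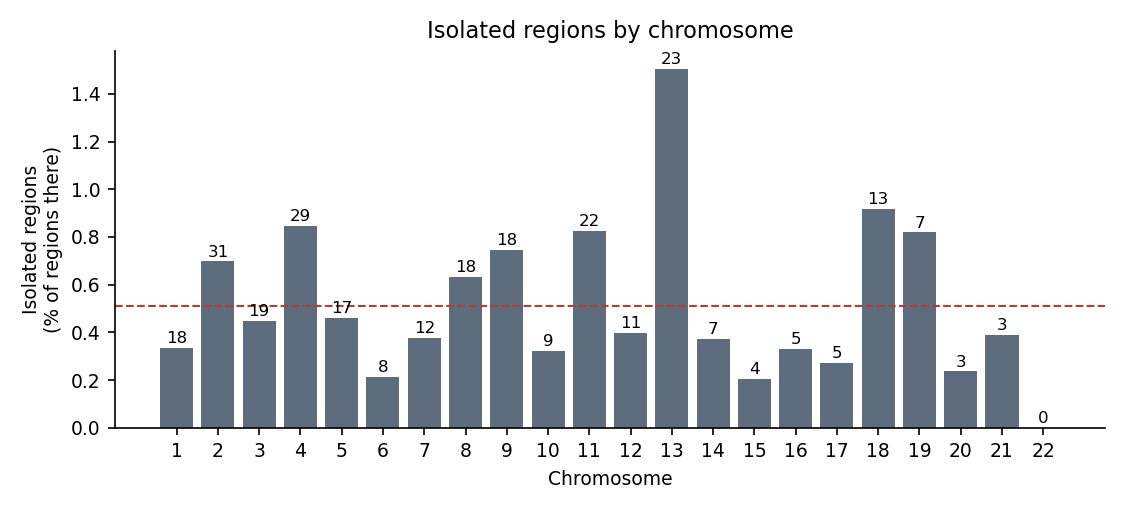
Share of the FOXA1 regions of each chromosome (x axis, chromosomes 1 to 22) that were isolated, in percent (y axis), with the number of isolated regions above each bar and the share over all chromosomes, 0.510%, as a dashed line. Chromosome 13 stands highest at 1.51%, and chromosome 22 has none.

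The 4 most isolated regions differed in how widely they were called. At chr11:51280718-51281130, with the nearest region at 1254 kb and the next at 3725 kb on the other side, FOXA1 gave 7.83 in P5091 replicate 1, against 8.78 and 7.55 in DMSO libraries, and no peak in the other 9 libraries. At chr1:195214955-195215319 (762 kb) the values were 14.6 and 35.0 in EPZ-6438 libraries, 13.7 and 30.9 in P5091 libraries and 25.3 in combination replicate 2, against 23.4 and 22.1 in DMSO libraries. At chr17:51215193-51215672 (719 kb) they were 31.4 and 30.1 in EPZ-6438 libraries, 28.7 and 20.0 in P5091 libraries and 26.0 in combination replicate 2, against 25.6 and 18.6 in DMSO libraries. The regions on chromosomes 1 and 17 had a peak of every FOXA1 library other than combination replicate 1 and of both tagged proteins. At chr7:63193152-63193516 (685.5 kb), with a gap of 5308 kb on its other side, EPZ-6438 gave no peak, P5091 gave 10.4 and 12.7 and combination replicate 1 gave 8.13, against 11.0 and 15.7 in DMSO libraries.

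Just inside the limit of 200 kb, at 200.1 kb, chr11:22243053-22243417 had 12.4 and 16.3 in DMSO libraries, and at 201.1 kb chr18:64190765-64191199 had 11.7 and 16.3. Just outside, at 199.8 kb, chr13:104047056-104047420 had 19.7 and 18.0 in DMSO libraries, and at 199.3 kb chr2:144618746-144619143 had 27.1 and 17.4. Both regions outside were thus higher than both inside, while over the 6 nearest regions on each side the values overlapped, from 11.7 to 46.1 inside and from 14.6 to 27.1 outside in DMSO replicate 1.

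How many regions counted as isolated depended on which list supplied the neighbours. Counting every peak of either DMSO list as a neighbour left 57 of the 282 without another peak within 200 kb, and counting the peaks of all 8 FOXA1 libraries left 8. When the same rule was applied to the pair of lists of each treatment, EPZ-6438 gave 169 isolated regions, P5091 gave 310, the combination gave 684 and DMSO 282. With EPZ-6438, 72 regions were isolated in both pairs of lists, which is 25.5% of the 282 and 42.6% of the 169. With P5091 the shared number was 142, or 50.4% of the 282 and 45.8% of the 310. With the combination it was 100, or 35.5% and 14.6%, and that pair holds the weak library. For the HA lists, 114 regions with a K295A and a WT peak were isolated by the same rule, and 30 isolated regions were among them.

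The lists of EPZ-6438 held more peaks around the isolated regions than those of P5091, in both replicate numbers. Within 200 kb of the 282 regions, a total of 108 Mb in 243 stretches, and with their own peaks left aside, there were 601 and 754 peaks with EPZ-6438, against 238 and 532 in P5091 libraries. Per 10000 peaks of each list these were 79.7 and 92.0 in EPZ-6438 libraries, against 35.9 and 66.3 in P5091 libraries. EPZ-6438 was thus 2.22-fold above P5091 within replicate 1 and 1.39-fold above it within replicate 2. Total tags were 22589685 for EPZ-6438 replicate 1, the most of any library, against 15329943 for P5091 replicate 1. In replicate 2 they were 12299238 and 16522678. Scaling to list size does not adjust for depth, whose part was not tested. Median tag counts of these surrounding peaks were 11.1 and 13.0 in EPZ-6438 libraries, against 11.7 and 10.9 in P5091 libraries. DMSO lists are low here by the rule, with 162 and 393 peaks, and are no reference for this measure. A list with peaks close to those of DMSO would be low for the same reason. Combination replicate 2 had 80.8 per 10000, 1.22-fold above P5091 replicate 2, and the weak combination replicate 1 had 33.9, 0.944 times P5091 replicate 1. The P5091 lists also differed between replicates, and with 2 libraries a group an exact permutation test cannot go below p = 0.333. Both tagged HA lists were higher still, with 913 peaks for K295A and 1255 for WT, or 115 and 133 per 10000, and the untagged lists were the highest per 10000, with 51 of 784 peaks (shFoxA1) and 56 of 809 (pGIPZ), or 651 and 692 per 10000.

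**Figure D2:**
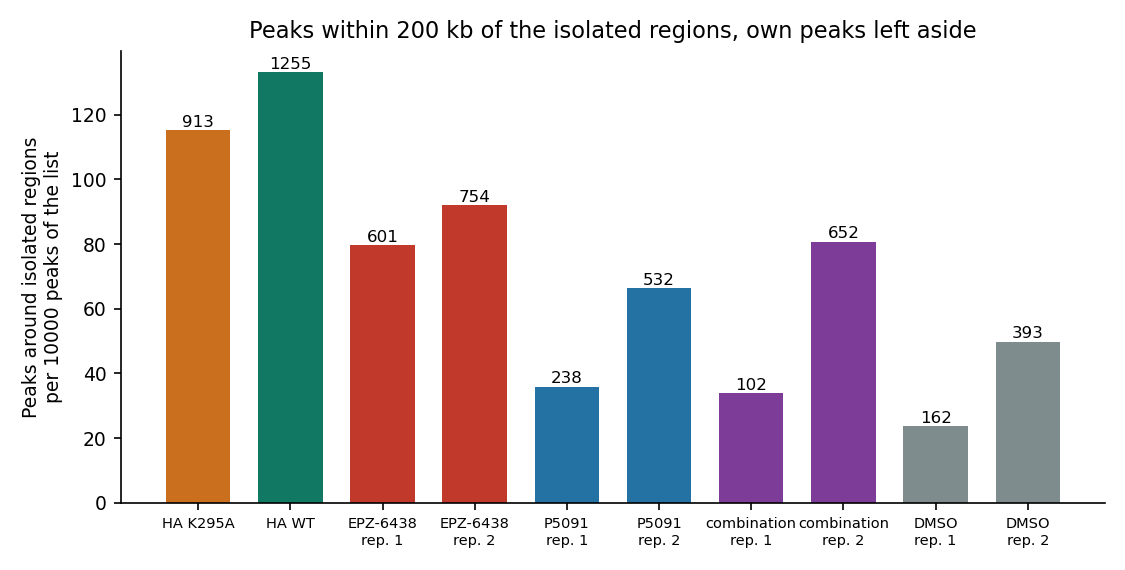
Peaks within 200 kb of the 282 isolated regions in each of 10 lists (x axis, the 2 untagged lists not drawn), per 10000 peaks of that list (y axis), with the number of peaks above each bar and the isolated regions' own peaks left aside. Each bar is 1 library. EPZ-6438 reached 79.7 and 92.0, P5091 35.9 and 66.3, and the DMSO bars are low by the rule that chose the regions.

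Away from the DMSO libraries, isolated regions were called about as often as other regions. EPZ-6438 libraries had a peak at 242 and 244 of the 282, or 85.8% and 86.5%, against 85.3% and 85.6% of the other regions. P5091 libraries had one at 80.1% and 89.4%, against 85.2% and 88.7%, and the combination libraries at 48.9% and 85.8%, against 47.3% and 85.2%. P5091 replicate 1 was the one library whose 95% exact binomial interval at isolated regions, 75.0% to 84.6%, did not hold the share of the other regions. Such intervals cover counting error alone, and regions are not replicates.

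Of the 282, 117 (41.5%) were called in all 6 libraries with a compound and hence in all 8 FOXA1 libraries, against 42.7% of the other regions. Leaving combination replicate 1 aside, 177 (62.8%) were called in the other 5, against 65.9%. In all, 76 regions were called in 5 of the 6 libraries (26.95%, against 26.4% of the other regions), 43 in 4 (15.2%, against 12.7%) and 18 in 3 (6.38%, against 8.15%). A further 12 were called in 2 (4.26%, against 5.43%), 12 in 1 (4.26%, against 3.12%) and 4 in none (1.42%, against 1.54%). Both libraries of EPZ-6438 called 222 isolated regions (78.7%, against 78.3%) and neither called 18 (6.38%, against 7.41%). Both libraries of P5091 called 213 (75.5%, against 79.4%) and neither 17 (6.03%, against 5.53%), and both of the combination called 134 (47.5%, against 46.4%) and neither 36 (12.8%, against 13.9%).

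Signal at isolated regions was lower than elsewhere in every library. Median normalized tag counts, over the regions called, were 19.5 and 21.1 in EPZ-6438 libraries, against 22.6 and 24.4 at the other regions. They were 20.9 and 19.4 in P5091 libraries, against 24.8 and 23.6, and 13.1 and 22.1 in combination libraries, against 14.4 and 23.7. With DMSO they were 19.4 and 17.1, against 23.4 and 20.3. On the scale of log2 (tag count + 1), used for all differences here, the difference of medians, isolated minus other, averaged -0.19 ± 0.066 over the 6 libraries with a compound (SD, n = 6 libraries). Each of the 6 differences was negative, from -0.27 to -0.097.

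Isolated peaks stood out more from the surrounding 10 kb than other peaks did, which is a description and not a finding. The rule keeps other regions out of that window, while 22345 of the other regions had a neighbour within 10 kb. The deposited fold over a local window of 10 kb, the peak caller's own ratio, had a median of 23.6 and 28.3 in EPZ-6438 libraries, against 15.2 and 20.6 at the other regions. It was 25.7 and 25.6 in P5091 libraries, against 16.8 and 19.0, and 16.1 and 30.1 in combination libraries, against 13.5 and 20.9. In each of the 8 FOXA1 libraries its median was higher at isolated regions than in any nearer band of distance to the nearest neighbour. In EPZ-6438 replicate 1 its median was 11.8 at regions with a neighbour within 10 kb, 17.3 from 10 to 50 kb, 19.3 from 50 to 100 kb, 21.5 from 100 to 200 kb and 23.6 at isolated regions. The order was broken between single bands in combination replicate 1 (14.5 in both the 10 to 50 and the 50 to 100 kb band) and for K295A (21.4 from 100 to 200 kb and 21.1 at isolated regions). Every listed peak had to pass 4-fold over this window. The deposited fold over input was not higher at isolated regions in most libraries: its median was lower in 5 of 8, equal in 2 and higher in 1, EPZ-6438 replicate 2. It was 19.6 and 31.9 in EPZ-6438 libraries, against 20.7 and 29.8 at the other regions, and 17.8 and 24.2 in P5091 libraries, against 21.6 and 25.03. It was 16.6 and 25.9 in combination libraries, against 16.6 and 28.4, and 19.9 and 24.5 in DMSO libraries, against 22.1 and 24.5.

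**Figure D3:**
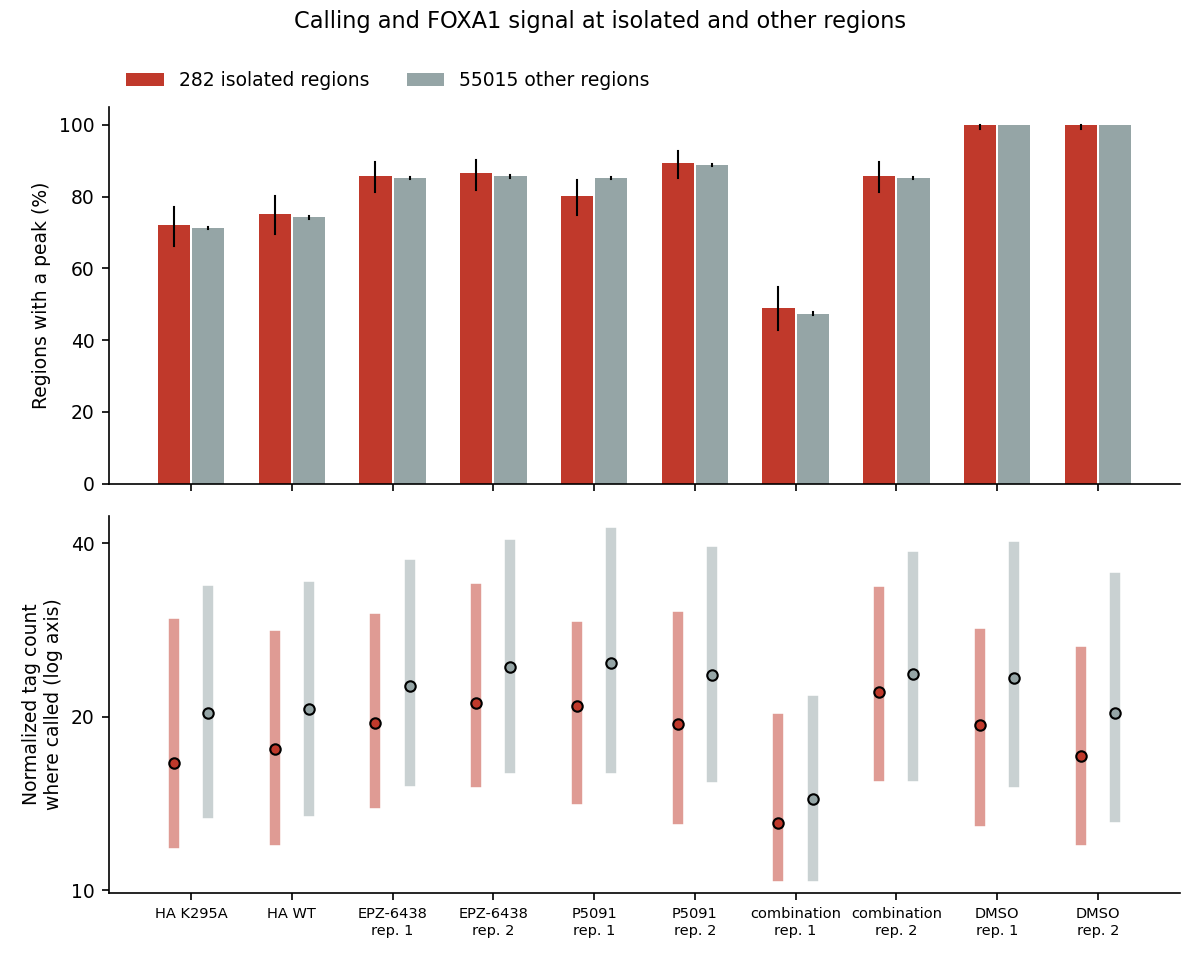
Share of the 282 isolated regions (red) and of the 55015 other regions (grey) with a peak in each library (upper panel, percent, with 95% exact binomial intervals), and the median and quartiles of the normalized tag count where called (lower panel, log axis), over 2 HA and 8 FOXA1 libraries on the x axis. Shares are close in each library other than P5091 replicate 1, and every red median lies below its grey neighbour; the DMSO shares are 100% by the rule.

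Fewer isolated regions were strong, and at matched DMSO signal a larger share of them was called in all 6 libraries with a compound. Of the 282, 92 lay in the lowest quartile of mean DMSO signal over all regions (up to 14.5), 89 in the second (14.5 to 21.3), 61 in the third (21.3 to 36.0) and 40 in the highest. From the lowest to the highest quartile these shares were 13.0% (12 of 92), 31.5%, 62.3% and 97.5% (39 of 40), against 5.36%, 20.7%, 52.9% and 91.5% of the other regions. The gap in the lowest quartile was mostly one of the weak combination replicate 1, which called 23.9% there, against 11.0%. With that library left aside the shares were 26.1%, 65.2%, 90.2% and 100%, against 24.1%, 56.0%, 85.4% and 97.9%. Single libraries did not all follow: P5091 replicate 1 called 55.4% against 59.2% in the lowest quartile and 84.3% against 85.3% in the second, and EPZ-6438 replicate 2 called 95.1% against 95.2% in the third. A K295A peak lay at 41.3%, 80.9%, 86.9% and 100%, against 41.3%, 62.8%, 83.5% and 97.2%, and a WT peak at 48.9%, 77.5%, 95.1% and 100%, against 47.01%, 67.6%, 84.8% and 97.3%. The gap for K295A was widest in the second quartile, and in the lowest there was none.

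The strongest isolated regions were ranked by their mean over the libraries with a compound. At chr11:69469554-69469918, 212 kb from its neighbour, FOXA1 gave 158.9 and 112.2 in EPZ-6438 libraries, 163.7 and 130.7 in P5091 libraries and 50.6 and 121.5 in combination libraries, against 154.3 and 153.3 in DMSO libraries. At chr11:29005306-29005670 (269.9 kb) the values were 120.4 and 108.9 in EPZ-6438 libraries, 112.2 and 106.5 in P5091 libraries and 45.6 and 140.5 in combination libraries, against 114.1 and 94.0 in DMSO libraries. Combination replicate 1 was lowest at both. The other 5 libraries of the treatments lay on either side of DMSO at the first region, and all 5 exceeded DMSO replicate 2 at the second.

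At chr8:32211189-32211576, the strongest region with no neighbour within 500 kb (520 kb on one side and 1022 kb on the other), the values were 81.0 and 136.6 in EPZ-6438 libraries, 47.6 and 116.2 in P5091 libraries and 58.8 and 134.9 in combination libraries, against 48.3 and 65.0 in DMSO libraries. Here both EPZ-6438 libraries exceeded both DMSO libraries, and even the weak combination library exceeded DMSO replicate 1. The others of the leading 6 were chr16:7506255-7506619 (318 kb), chr3:168388966-168389330 (203 kb) and chr20:15842821-15843185 (208 kb). Across the 8 FOXA1 libraries they ranged from 38.8 to 108.9, from 35.0 to 131.8 and from 32.5 to 104.9, with combination replicate 1 lowest each time. All 6 had a peak of both tagged proteins and none in the untagged libraries.

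In the HA libraries, isolated regions were occupied by both tagged proteins about as often as other regions. A K295A peak lay at 203 of 282 (72.0%, 95% exact binomial interval 66.4 to 77.1) and a WT peak at 212 (75.2%, 69.7 to 80.1), against 71.2% and 74.2% of the other regions. Both proteins had a peak at 183 (64.9%, against 65.0% of the other regions), K295A alone at 20 (7.09%, against 6.20%), WT alone at 29 (10.3%, against 9.18%) and neither at 50 (17.7%, against 19.6%). The untagged shFoxA1 and pGIPZ libraries had a peak at 0 of 282, which allows a share of up to 1.06%. With 1 library per condition there is no replicate check.

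Signal of K295A and WT was close at isolated regions. Over the 183 with both peaks the median was 18.1 for K295A and 20.6 for WT, and the log2 ratio of K295A over WT, here of the tag counts themselves, had a median of -0.027 (quartiles -0.33 and 0.23), against -0.050 over the other regions. K295A was at least 2-fold above WT at 2 of the 183 (1.09%) and at least 2-fold below it at 2, beside 1% above and 1.55% below over all 35933 regions with both peaks and no peak of an untagged library.

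The largest ratio was at chr4:30764942-30765306, with 30.9 for K295A and 14.5 for WT (2.13-fold, 95% counting interval 1.21 to 3.89). At chr13:54702268-54702632 the values were 27.1 and 13.0 (2.08-fold, 1.14 to 3.97). The smallest was at chr5:46371749-46372113, with 9.04 for K295A and 25.2 for WT (0.359, 0.169 to 0.713), beside a gap of 3081 kb, and at chr9:11955678-11956059 the values were 11.3 and 23.7 (0.477, 0.240 to 0.912). These are the extremes of 183 ratios, chosen for their size.

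Across regions, replicate libraries of a treatment agreed somewhat less at isolated regions than elsewhere. Pearson r of log2 signal was 0.774 between the EPZ-6438 libraries over 222 isolated regions, against 0.818 over the other regions. It was 0.722 between the P5091 libraries, against 0.809, 0.762 between the combination libraries, against 0.784, and 0.813 between the DMSO libraries, against 0.855. K295A and WT gave 0.880, against 0.874. These are descriptions across regions, which share their libraries and are not independent, and isolated regions span a narrower range of signal.

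The compounds were compared at regions with a peak in all 8 FOXA1 libraries, 24138 regions on all chromosomes, of which 117 were isolated; the other 165 isolated regions lacked a peak in at least 1 library and were not tested. limma was fitted to log2 (tag count + 1) over all 24138, with Benjamini-Hochberg adjustment over all of them at 0.05. Without a term for the replicate number it called 0 regions (0%) in every comparison, with 143 higher (0.592%) and 90 lower (0.373%) at an unadjusted p under 0.05 for EPZ-6438 against DMSO, among them 2 isolated regions, both higher. For the comparisons of single groups edgeR on the recovered tags without that term also called 0, with 1704 unadjusted for EPZ-6438 against DMSO, and in the comparison of 4 libraries with 4 it called 36, of which 0 were isolated. The labels do not state that the replicate numbers pair the libraries, and this was inferred from these same data. On that basis the values below come from limma with a block for the replicate number, after subtracting from every library its own median over the tested regions. The planned fit was the one without the block. Differences are therefore relative to the typical region of each library. Positive ones need not be rises in absolute occupancy. The block without centring called 0 regions in each comparison.

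With EPZ-6438 present, isolated regions lay above the typical region, and those that passed the test were all higher. When the 4 libraries that received EPZ-6438 (alone or combined) were set against the other 4 (P5091 or DMSO), 843 regions were higher (3.49%) and 977 lower (4.05%). Of the 117 isolated regions, 12 were higher (10.3%) and 0 lower, with 35 higher and 3 lower at an unadjusted p under 0.05, beside 10.8% and 12.1% of all. edgeR with the block called 16 isolated regions higher and 0 lower, beside 3.9% and 3.97% of all. The median log2 difference was 0.23 at isolated regions (quartiles 0.026 and 0.50) and -0.013 over all tested regions. It was above 0 at 89 of 117 (76.1%), beside 48.5% of all. Without centring the medians turned negative, to -0.13 at isolated regions and -0.38 over all.

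Leaving out single libraries changed the number of isolated regions called, and less so their median. Without combination replicate 2 more than 12 were called higher, and without any other single library fewer. Over all tested regions the number called higher moved the same way each time. Without the weak combination replicate 1, 177 isolated regions could be tested, and those called went in both directions. Each such fit leaves 1 library in a group. The median of the isolated regions minus that of all tested regions was 0.25 with every library and between 0.18 and 0.33 without any single one, and the isolated median itself was 0.15 without combination replicate 1. In the fit without block or centring, leaving out combination replicate 2 left the weak library alone to stand for the combination. The medians were then -0.38 at isolated regions and -0.66 over all, so the isolated regions were less low than the typical region.

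DMSO libraries chose the regions and stand on one side of this comparison, so the combination was also set against P5091, a pair of groups with no DMSO library. This pair is not free of selection either, since tested regions needed a peak in every list, that of the weak combination replicate 1 included. Weak regions could enter only where that library passed its threshold. This comparison was added after the data had been seen. The median difference was 0.31 at isolated regions and 0.0054 over all tested regions, and it was above 0 at 91 of 117 (77.8%), beside 50.6% of all. limma with block and centring called 1 isolated region higher and 0 lower, beside 0.319% and 0.505% of all tested regions. The call was absent without combination replicate 1, P5091 replicate 1, EPZ-6438 replicate 1 or 2 or DMSO replicate 1, and more were called without combination replicate 2. Over all tested regions the number called higher moved the same way in these fits. The isolated median was 0.20 without P5091 replicate 1 and 0.49 without combination replicate 2. Uncentred, the medians were -0.36 and -0.67. Without combination replicate 2, the fit without block or centring gave medians of -0.88 at isolated regions and -1.24 over all.

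EPZ-6438 against DMSO gave a median difference of 0.16 at isolated regions and -0.028 over all, with 78 of 117 above 0 (66.7%), beside 47.1%. It was called higher at 1 isolated region and lower at 0, beside 0.315% and 0.356% of all. That call was absent without DMSO replicate 1 or 2 or EPZ-6438 replicate 1 or 2, and more were called without P5091 replicate 1 or combination replicate 1 or 2. Over all tested regions the number called higher also fell without a DMSO or EPZ-6438 library, and it rose without a combination library. The isolated median was 0.10 without combination replicate 1 and 0.25 without EPZ-6438 replicate 1. Uncentred, the medians were 0.11 and -0.083. The combination against DMSO gave 0.39 and -0.0099, with 88 of 117 above 0 (75.2%), beside 49.1%, and with 5 isolated regions higher and 0 lower, beside 1.79% and 2.42%. Uncentred, these medians were -0.29 and -0.69. The calls at isolated regions were absent without combination replicate 1. They were fewer without DMSO replicate 1 or 2, EPZ-6438 replicate 1 or 2 or P5091 replicate 2. More isolated regions were called without combination replicate 2 or P5091 replicate 1. Over all tested regions the number called higher moved the same way, other than without P5091 replicate 1, where it fell. Without combination replicate 1 the isolated median was 0.17, and with the trend of each library on mean signal removed it was 0.25. Without combination replicate 2, the fit without block or centring gave medians of -0.84 at isolated regions and -1.25 over all. These comparisons share the DMSO libraries.

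P5091 against DMSO set isolated regions little apart. The median difference was 0.049 at isolated regions and -0.021 over all, 64 of 117 were above 0 (54.7%), beside 46.8%, and 0 regions were called anywhere (0%), with 259 higher (1.07%) and 274 lower (1.14%) at an unadjusted p under 0.05, of which 0 were isolated. edgeR with the block also called 0, with 682 unadjusted. The isolated median was 0.15 without P5091 replicate 1, -0.0049 without combination replicate 1 and -0.066 without P5091 replicate 2. Whether the effects of EPZ-6438 and P5091 at isolated regions differ from each other was not tested.

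The difference with EPZ-6438 was larger at regions farther from their nearest neighbour. For EPZ-6438 against DMSO the median difference was -0.065 over 9431 regions with a neighbour within 10 kb, -0.021 from 10 to 50 kb, 0.057 from 50 to 100 kb, 0.16 from 100 to 200 kb and 0.16 at isolated regions. For the combination against P5091 it was -0.044, 0.019, 0.10, 0.22 and 0.31 over the same bands. For P5091 against DMSO it was -0.021, -0.024, -0.0090, 0.016 and 0.049, a smaller range that was also highest at isolated regions. The distances themselves were measured between regions of the DMSO lists. When the 4 libraries that received EPZ-6438 were set against the other 4, the share of regions called higher was 2.38%, 3.45%, 7.34%, 9.46% and 10.3% from the nearest to the isolated band, and the share called lower was 5.02%, 3.88%, 2.10%, 0.557% and 0%.

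**Figure D4:**
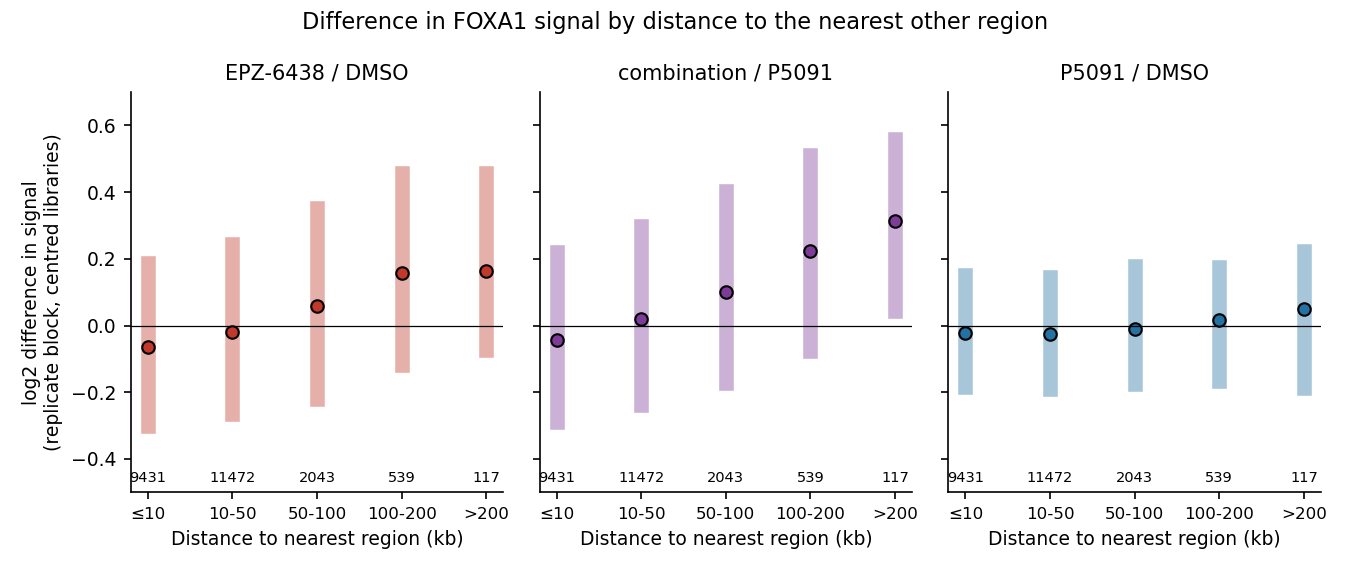
Median (points) and quartiles (bars) of the log2 difference in FOXA1 signal, from limma with replicate block and centred libraries, for regions in 5 bands of distance to the nearest other region (x axis, kb) and for EPZ-6438 over DMSO, the combination over P5091 and P5091 over DMSO (panels). The number of regions stands under each bar. Medians go up with distance in the first 2 panels, to 0.16 and 0.31 at isolated regions. In the third panel they range less and are also highest at isolated regions, at 0.049. The quartiles of neighbouring bands overlap.

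Weak tested regions were also relatively higher in the comparisons with EPZ-6438, and isolated regions are weaker than others. The difference was therefore read within quartile groups of the mean signal over the 8 libraries. For the combination against P5091 the medians at isolated regions were 0.48, 0.31, 0.21 and 0.077 from the weakest to the strongest quartile, against 0.26, 0.046, -0.066 and -0.16 at the other regions. For EPZ-6438 against DMSO they were 0.15, 0.23, 0.17 and 0.12, against 0.085, 0.011, -0.047 and -0.12. The isolated regions lay above the others in each quartile, which held 47, 31, 23 and 16 of them. Every tested region needed a peak in the weak combination replicate 1, which is also part of that mean. In the lowest quartile of DMSO signal it called 23.9% of isolated and 11.0% of other regions. Reading within quartiles does not remove this selection, whose part was not tested. With the trend of each library on mean signal removed, 11 isolated regions were called higher and 0 lower in 4 libraries against 4, beside 3.04% and 2.56% of all, and their median was 0.16.

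Within replicate numbers the excess of isolated regions was seen in both for each step that added EPZ-6438, with sizes that differed. For EPZ-6438 over DMSO the median of the isolated regions minus that of the others was 0.14 in replicate 1 and 0.26 in replicate 2. For the combination over P5091 it was 0.45 in replicate 1, which holds the weak library, and 0.11 in replicate 2. For P5091 over DMSO it was -0.044 in replicate 1 and 0.15 in replicate 2. For the combination over EPZ-6438, a step that adds P5091, it was 0.25 in replicate 1 and -0.022 in replicate 2. Of the 4 steps that did not add EPZ-6438, 2 thus exceeded 2 of the 4 that did. Combination replicate 1 has the lowest share of tags in peaks, and its part in the excess was not tested beyond leaving it out.

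Regions isolated in the lists of a treatment were read in the same fit. They are a description too, since the lists that chose them stand on one side of some of these comparisons, P5091 as the reference of the combination against P5091. Of the 310 regions found isolated there, 115 could be tested, and their median difference was 0.20 for EPZ-6438 against DMSO, 0.010 for P5091 against DMSO and 0.31 for the combination against P5091. The 43 of them that the DMSO lists did not call isolated gave 0.21, -0.035 and 0.23, and 32 of these 43 (74.4%) lay above 0 in 4 libraries against 4. Regions isolated in the EPZ-6438 lists, 49 tested, gave 0.11, -0.092 and 0.28. Regions isolated in the combination lists, 511 tested, gave 0.13, 0.021 and 0.19, and in 4 libraries against 4 they were called in both directions, 38 higher and 16 lower.

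The 12 isolated regions called higher with EPZ-6438 had log2 differences from 0.52 to 1.02 and lay 228 to 520 kb from their neighbours. In 7 of the 12, all 4 centred values with EPZ-6438 lay above all 4 without it. Over all 117 this was so for 13 (11.1%), and for 1 (0.855%) all 4 lay below, beside 4.46% and 4.11% of all tested regions. The 12 were called from these same centred values, so their separation is a description and not a further finding.

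The call with the smallest p was chr8:32211189-32211576, whose values are given above (log2 difference 0.94 ± 0.17 SE, adjusted p = 0.000169 by limma). Its EPZ-6438 and P5091 libraries overlapped, since P5091 replicate 2 gave 116.2. It was also the isolated region called for EPZ-6438 against DMSO (0.95 ± 0.23, adjusted p = 0.0316) and for the combination against P5091 (0.93 ± 0.23, adjusted p = 0.0374), both by limma.

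At chr2:49253630-49254010 (272 kb) the values were 23.0 and 25.2 in EPZ-6438 libraries and 11.9 and 21.3 in combination libraries, against 12.4 and 10.3 in P5091 libraries and 13.9 and 12.2 in DMSO libraries. Both EPZ-6438 libraries were above all 4 without it, and combination replicate 1 was at the level of P5091 before centring. The log2 difference was 1.02 ± 0.26 (SE, limma adjusted p = 0.0110), the largest of the 12, and neither tagged protein had a peak there.

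At chr5:84344891-84345255 (346 kb) the values were 22.6 and 26.0 in EPZ-6438 libraries and 10.6 and 23.7 in combination libraries, against 15.0 and 20.6 in P5091 libraries and 12.4 and 8.71 in DMSO libraries. The DMSO values were the lowest after centring, and P5091 lay between them and EPZ-6438. The log2 difference for 4 libraries against 4 was 0.87 ± 0.26 (SE, limma adjusted p = 0.0280), and for the combination against DMSO it was 1.25 ± 0.37 (adjusted p = 0.0383). Its neighbour at 346 kb, chr5:83998904-83999268, is itself isolated and gave 17.7 and 13.8 in EPZ-6438 libraries and 8.13 and 8.68 in combination libraries, against 15.7 and 12.7 in P5091 libraries and 19.0 and 16.3 in DMSO libraries. It was not called in any comparison (combination against DMSO -0.31 ± 0.40, SE, limma adjusted p = 0.719).

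At chr8:112449709-112450073 (302 kb) the values were 28.3 and 35.0 in EPZ-6438 libraries and 20.0 and 42.6 in combination libraries, against 24.8 and 23.6 in P5091 libraries and 26.3 and 12.2 in DMSO libraries. After centring all 4 with EPZ-6438 were above all 4 without it, with a log2 difference of 0.88 ± 0.23 (SE, limma adjusted p = 0.0103). A like pattern was called at chr11:29303668-29304032 (298 kb), with 27.4 and 32.5 in EPZ-6438 libraries and 21.3 and 35.5 in combination libraries, against 22.2 and 21.2 in P5091 libraries and 25.6 and 11.6 in DMSO libraries (0.91 ± 0.23, SE, limma adjusted p = 0.0102). DMSO replicate 2 was the lowest library at both.

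At chr4:126992842-126993219 (378 kb) the values were 35.4 and 30.1 in EPZ-6438 libraries and 15.0 and 16.6 in combination libraries, against 16.3 and 21.8 in P5091 libraries and 13.9 and 12.8 in DMSO libraries (0.86 ± 0.26, SE, limma adjusted p = 0.0265). EPZ-6438 alone was highest here, and combination replicate 2 lay below P5091 replicate 2. The other 6 called regions, on chromosomes 2, 11, 14 (2 regions) and 18 (2 regions), had differences of 0.52 to 0.87.

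**Figure D5:**
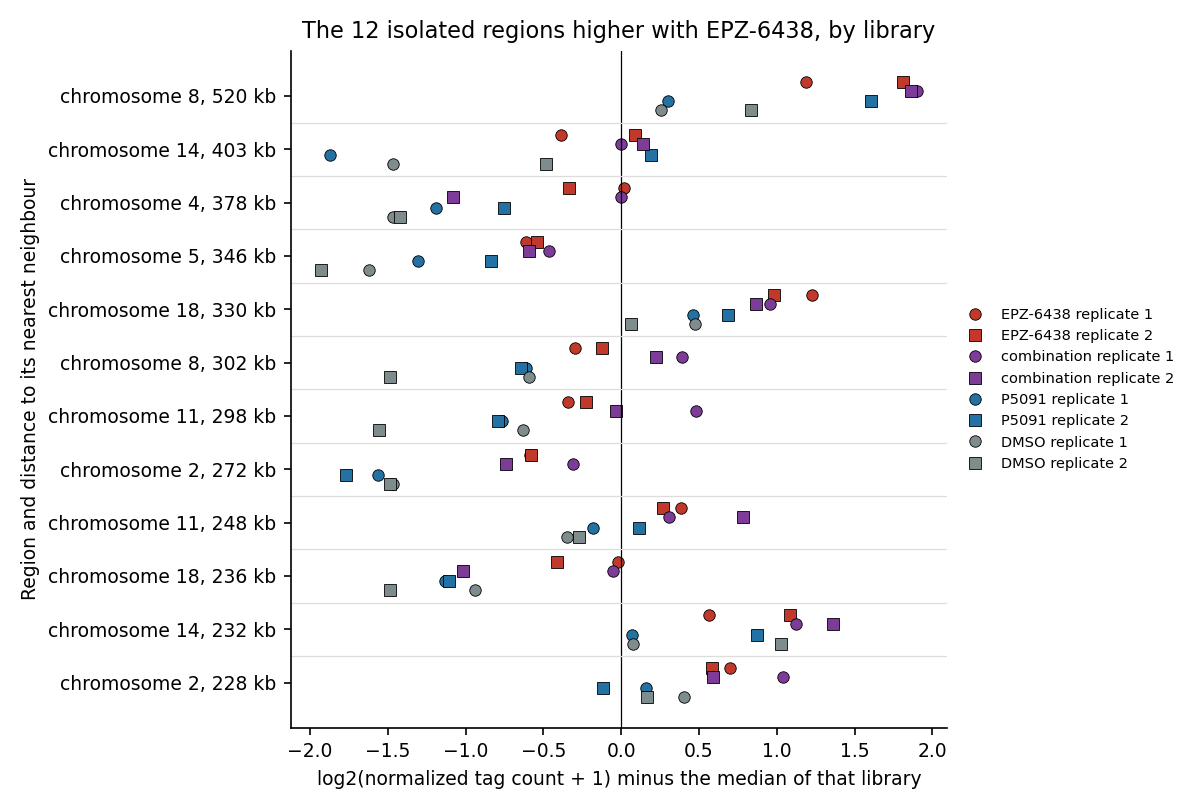
The 12 isolated regions called higher in the 4 libraries that received EPZ-6438 than in the other 4 (rows, named by chromosome and distance to the nearest neighbour), with log2 (normalized tag count + 1) minus the median of that library on the x axis. Each point is 1 library, with EPZ-6438 and the combination above P5091 and DMSO in each row. In 7 of the 12 rows the red and purple points all lie right of the blue and grey ones. The rows were chosen by a test on these same values.

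Among isolated regions that leaned the other way, none passed in the block and centred fit. An example is chr1:72955461-72955858 (206 kb), where the values were 17.3 and 32.5 in EPZ-6438 libraries and 12.5 and 28.4 in combination libraries, against 35.2 and 38.7 in P5091 libraries and 35.8 and 45.9 in DMSO libraries (4 libraries against 4, log2 difference -0.47 ± 0.22, SE, limma adjusted p = 0.173). Both EPZ-6438 and both combination values lay below all 4 without EPZ-6438 as deposited. At chr2:212753539-212753903 (247 kb) the values were 15.1 and 13.0 in EPZ-6438 libraries and 8.75 and 10.3 in combination libraries, against 22.8 and 14.5 in P5091 libraries and 19.0 and 19.7 in DMSO libraries (-0.29 ± 0.27, SE, limma adjusted p = 0.565).

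For EPZ-6438 against DMSO a further negative difference was at chr10:88121220-88121598 (377 kb), with 14.2 and 13.0 in EPZ-6438 libraries, against 19.7 and 28.4 in DMSO libraries (log2 difference -0.70 ± 0.38, SE, limma adjusted p = 0.410). For P5091 against DMSO the regions named by the smallest p were chr5:84344891-84345255, whose values are given above, on the higher side, and chr3:115824961-115825325 (219 kb) on the lower, with 13.0 and 8.47 in P5091 libraries, against 22.7 and 12.2 in DMSO libraries. The difference was 0.71 ± 0.37 at the region on chromosome 5 and -0.62 ± 0.40 at that on chromosome 3 (SE, limma adjusted p = 1 for both). The next on each side were chr2:222069783-222070147, with 20.9 and 32.1 in P5091 libraries, against 15.4 and 18.6 in DMSO libraries, and chr9:8329617-8329981, with 34.6 and 18.2 in P5091 libraries, against 43.1 and 33.7 in DMSO libraries. Neither passed.

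At 4 isolated regions (1.42%) no library other than the DMSO ones had a peak, against 1.04% of the other regions. The strongest of them were chr13:102574185-102574560, with 10.2 and 12.2 in DMSO libraries, chr8:5751977-5752341, with 13.2 and 7.55, and chr4:158434449-158434813, with 11.7 and 6.39. The lowest values at any isolated region were 8.04 in DMSO replicate 1 and 5.22 in DMSO replicate 2, and absence of a peak elsewhere cannot be told from a value just under the threshold of a list.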

How the data were processed

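ChIP-seq peak lists of 12 libraries were used. The submitters' processing notes name Bowtie2, HOMER 4.2 and the build hg19. Per the file headers, findPeaks (style factor) was run on each library alone with a false discovery rate threshold of 0.001 and a required 4-fold excess over the surrounding 10 kb. An input library was used for FOXA1 and none for HA.

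The deposited normalized tag count is a signal, tags scaled to 10000000 per library, per the file headers. The score of the deposited lists served for a stricter threshold (20 for FOXA1, 17 for HA, the medians of the pooled lists), the fold against local or input signal is a ratio computed by the authors' peak caller, and the deposited focus ratio, a fraction, was read but is not reported. Tags recovered from the signal and the library totals were whole for 100% of peaks, within the rounding of the printed values, and were used for edgeR. Where a deposited count of tags per peak existed (3 libraries), 97.3% to 100% of recovered tags equalled it.

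Peaks were merged at 1 shared base, and a library's value in a region is its highest peak. Differences used limma 3.58.1 (R 4.3.3, trend on) on log2 (tag count + 1), which understates changes of weak regions. edgeR 4.0.16 (quasi-likelihood, TMM) was fitted to the recovered tags, and both tests were two-sided. A library left alone in a group by leaving out its partner is assumed to vary like the others. Replicate numbers come from the titles. Deviations of replicate 1 from its group mean correlated between groups at 0.148 to 0.488 over 24138 regions, all 6 above 0.1, so the numbers were taken to pair the libraries. Planned was the fit without the block. The limma and merging steps were tested on simulated data. For limma the simulated noise was smaller than the spread of the real regions and had no replicate structure or weak library. Power and error rates at the real spread were not tested. Intervals are 95% exact binomial (Clopper-Pearson) and, like the limit for a count of 0 (3 counts), cover counting error only.

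Isolated regions, distance bands, comparisons and alternatives were chosen with earlier results of these data known. Named are the 6 strongest and 4 most isolated regions, 2 on each side of the distance limit, the 2 with the smallest p in each direction per planned comparison in the fit without the block, those with no peak outside DMSO (3) and the 2 highest and lowest K295A ratios; further called regions were named after their values were seen. Sequences were not analysed here.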

Additional observations from a re-analysis of the deposited data

How the results depend on the processing

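With a limit of 100 kb the rule gave 1533 regions with a signal difference of -0.12 on the log2 scale, and with 500 kb it gave 13 regions, of which 30.8% were called in all 6 libraries with a compound, 46.2% had a K295A and 53.8% a WT peak, with a signal difference of -0.51. A stricter score gave 694 regions, with 62.1% in all 6, 42.9% with K295A and 45.7% with WT, and neighbours from either DMSO list left 57. Leaving out 1 library gave shares of 41.8% to 62.8% (62.8% without combination replicate 1) and signal differences of -0.21 to -0.17. Against the 0 calls of limma without replicate block, the fit with the replicate block alone called 0 in each comparison. Replicate block with centring called 162 regions for EPZ-6438 against DMSO (1 isolated), 1016 for the combination against DMSO (5 isolated), 1820 for 4 libraries against 4 (12 isolated) and 199 for the combination against P5091 (1 isolated). edgeR with the block called 383 (3), 774 (4), 1900 (16) and 143 (1). Centring alone called 38 for 4 libraries against 4, edgeR without the block 36, and regions called in at least 4 libraries 6; the libraries of the contrast alone called 17 for EPZ-6438 against DMSO. Removing the trend on mean signal left 552 for the combination against DMSO, 48 for the combination against P5091 and 2 isolated regions higher for EPZ-6438 against DMSO. Leaving out 1 library in the fit without block gave 0 to 16098 regions (0 to 39 isolated) for the combination against DMSO, 0 to 11487 (0 to 23) for 4 libraries against 4 and 0 to 15970 (0 to 45) for the combination against P5091, each highest without combination replicate 2, which leaves the weak library alone in its group, and all isolated regions called there were lower. With block and centring it gave 0 to 603 (0 to 4 isolated higher) for EPZ-6438 against DMSO, 46 to 1914 (0 to 13) for the combination against DMSO, 273 to 2859 (1 to 22 higher, 0 to 1 lower) for 4 libraries against 4 and 0 to 929 (0 to 5) for the combination against P5091. The excess of isolated regions for P5091 against DMSO ran from -0.048, a reversal without P5091 replicate 2, to 0.16, and chr8:140020224-140020588 in the combination against P5091 ran from -0.14, a reversal without combination replicate 2, to 0.65. Of 362 values of single regions under alternatives, 349 kept direction and side of the threshold, 11 newly passed and 2 reversed. The causes of these changes were not tested. Lists omit values below their thresholds of 10 to 14 tags, so weak signal was not measurable, and 165 isolated regions could not be compared.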
